A study of Rattus norvegicus with 10 samples.

Results

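The genes described here build the contacts between neighbouring cells of rat lung: cadherins, catenins, nectins with afadin, claudins, the other tight junction proteins, and the desmosomal plaque protein desmoplakin. They were taken by gene symbol alone, and 72 of the 22250 genes in the deposited table had a matching symbol. These were 23 cadherins, 9 catenin genes including plakoglobin (Jup), 28 claudins, 4 nectins with afadin (Afdn), 6 other tight junction genes (among them Tjp1, Ocln and F11r) and desmoplakin (Dsp). The symbols also took in Ctnnbip1, Ctnnbl1 and Ctnnal1. Ctnnbip1 encodes an inhibitor of beta-catenin signalling, Ctnnbl1 a nuclear protein associated with splicing, and Ctnnal1 a relative of alpha-catenin.

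Messenger RNA of lung was sequenced in 10 libraries, 5 titled XBS and 5 titled MOD. The design text speaks of neutrophilic asthma that was set off in rats with ovalbumin (an allergen of egg white) and lipopolysaccharide (an endotoxin), and of a herbal formula, SP (named Shuangpi Formula in the title). The labels do not say what XBS and MOD stand for, which of the agents either group received, or the strain, age, dose or time, so the groups are called by these names. They also list the human bronchial line 16HBE, while the identifiers of the table are those of rat genes. Nothing in the labels ties a library to 1 animal, so p-values measure the spread between libraries, which may be technical.

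In an epithelium, cadherins hold neighbouring cells together through their outer domains, and catenins tie their cytoplasmic tails to actin. Nectins make a parallel contact that is tied to actin by afadin. Above these adherens junctions, claudins and occludin seal the space between cells and set which ions pass, and ZO proteins such as that of Tjp1 anchor them. In lung, E-cadherin (Cdh1) marks the epithelium, VE-cadherin (Cdh5) the endothelium, and claudin-18 the alveolar epithelium. Loss of this barrier is a known feature of asthmatic airways.

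Totals ran from 11998979 to 15518929 counts per library, so that 3 counts, the floor used here, came to between 0.19 and 0.247 CPM (the count relative to the scaled library total; counting error only). Surfactant and other alveolar type 2 markers summed to 17311-34811 CPM in XBS libraries, against 25578-33112 CPM in MOD libraries. Markers of squamous and basal epithelium were low, at a sum of 6.24-8.29 CPM in XBS libraries, against 4.59-7.53 CPM in MOD libraries. At 0 in every library were 2 of the 9 of these genes in the table, Ivl and Sprr1a. XBS 2 and XBS 3 stood apart in the summed markers of ciliated and club cells, the cells that line the airways. The ciliated sum was 548, 356, 356, 875 and 737 CPM in XBS 1 to 5, against 721, 661, 744, 728 and 621 CPM in MOD 1 to 5. The club cell sum was 7712, 2283, 2503, 8831 and 8516 CPM in XBS 1 to 5, against 9745, 8477, 12035, 10292 and 7916 CPM in MOD 1 to 5. Most of it was Scgb1a1, at 1934 CPM in XBS 2 and 2158 CPM in XBS 3. XBS 2 and XBS 3 were also the lowest libraries in Scgb3a1, Scgb3a2 and Cyp2f4, but not in Muc5b, Kcnk2, Chad or Bpifa1. Muc5b was lowest in XBS 1 and Kcnk2 in XBS 5. In that list 5 of 8 tested genes had a negative and 3 a positive fold change, and 1 fell, the cytochrome P450 gene Cyp4b1. Cyp4b1 had 273, 258, 225, 272 and 219 CPM in XBS 1 to 5, so XBS 2 and XBS 3 did not stand apart in it. MOD 1 to 5 had 395, 396, 402, 377 and 405 CPM. Every XBS library was below every MOD library (log2 fold change -0.66 ± 0.08 (SE), adjusted p = 0.0104). XBS 5 and MOD 4 carried the most heart muscle RNA, with cardiac marker sums of 80.0, 56.6, 39.8, 112 and 486 CPM in XBS 1 to 5, against 100.4, 82.1, 99.9, 367 and 88.0 CPM in MOD 1 to 5.

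Levels between genes were compared by the deposited FPKM, the read count corrected for gene length and library total. Claudin-18 was the most abundant member, with a median of 495 FPKM over the 10 libraries. Beta-catenin (Ctnnb1, 178 FPKM), Cdh5 (168 FPKM), alpha-catenin (Ctnna1, 165 FPKM) and the junctional adhesion molecule A gene F11r (148 FPKM) followed, and these 5 were the members above 100 FPKM. Over the libraries the levels of these last 4 overlapped, so their order was not resolved. Plakoglobin (92.6 FPKM), p120-catenin (Ctnnd1, 87.4 FPKM), Cdh1 (76.2 FPKM), claudin-3 (63.6 FPKM) and Tjp1 (55.9 FPKM) came next. In all, 21 members had a median of at least 10 FPKM and 42 of at least 1 FPKM. Among claudins the next after Cldn18 and Cldn3 were Cldn7 (39.0 FPKM), Cldn12 (8.25 FPKM) and Cldn4 (6.06 FPKM). In every library the level of claudin-18 was above that of any other claudin. The barrier claudin Cldn1, abundant in skin, had 2.28 FPKM.

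**Figure D1:**
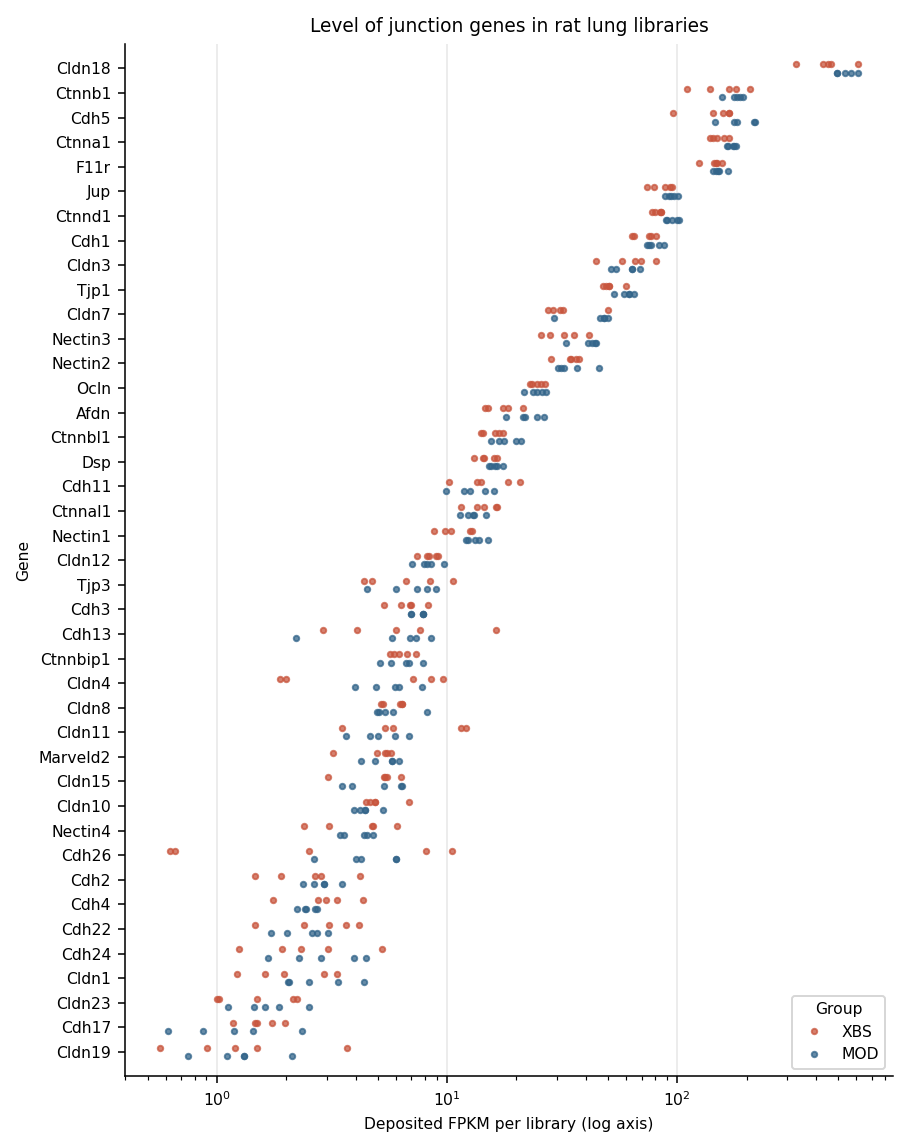
Deposited FPKM of members with a median of at least 1 FPKM, on a log axis; each point is a library, XBS above MOD in each row. Cldn18 (median 495 FPKM) lies at the top, followed by Ctnnb1 (178 FPKM) and Cdh5 (168 FPKM).

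The comparison asked which of these genes differed between XBS and MOD lungs, and 0 of the 47 members that passed the filter on low counts rose or fell (edgeR, adjusted p under 0.05). Over all genes tested 11 of 14320, or 0.0768%, passed. At an unadjusted p under 0.05 there were 10 members, 9 lower and 1 higher in XBS, while 13.2% of all genes tested met this limit (5.78% lower and 7.4% higher). The count was 6 of 47 without XBS 1 (8.98% of all genes) and 6 of 49 without MOD 2 (8.95% of all genes). DESeq2 called 1 member, Ctnnd1, against 2.44% of the genes to which it gave an adjusted p, and limma voom called 0, against 0.468% of all genes tested. By log2 fold change 34 of the 47 were lower and 13 higher in XBS, with a median of -0.14, while 48.1% of all genes tested were lower, with a median of 0.01. The median of the members was nearer 0 where some libraries were left out, with 28 of 49 lower (median -0.07) without XBS 2, 32 of 49 (median -0.08) without XBS 3, and 29 of 49 (median -0.07) without MOD 1. Among the abundant members the lower share was larger. Of 18 members with a mean of at least 50 CPM, 16 were lower (median log2 fold change -0.20), as were 55.5% of the 4688 genes of that level (median -0.02). Of the 29 members under 50 CPM, 18 were lower (median -0.03), as were 44.5% of 9632 genes of that level (median 0.03). The 16 lower members were lower by between 1.15% (Ocln) and 23.7% (Afdn). These counts of directions carry no test, and a member that passed the filter through 1 group alone had to differ.

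**Figure D2:**
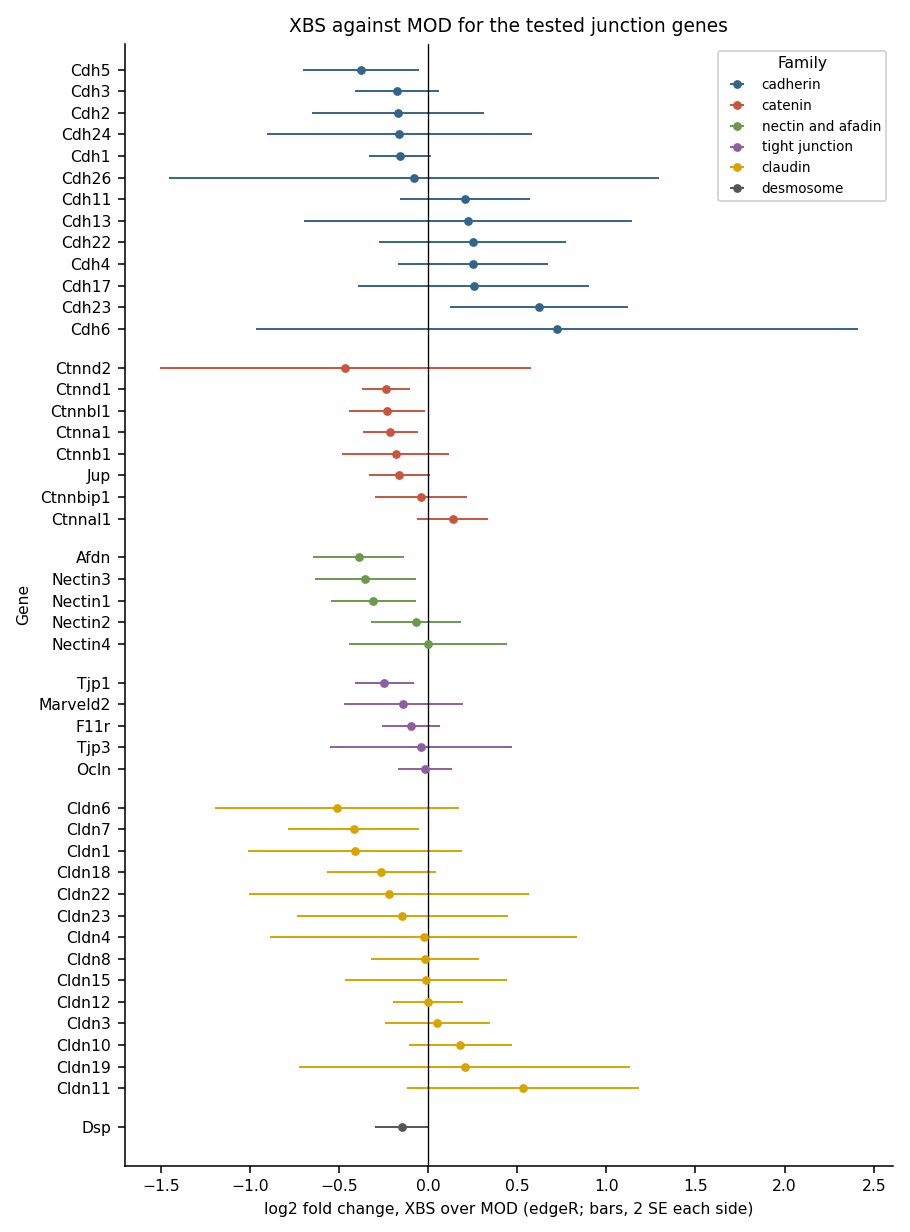
Log2 fold change of XBS over MOD for tested members by family, with bars of 2 SE to each side; values left of 0 are lower in XBS. The catenins Ctnnd1 and Ctnna1, Afdn and Tjp1 lie left of 0 with their bars, while Ocln (-0.02 ± 0.08) and Cldn12 sit near 0 and Cdh6 and Cdh26 have the widest bars.

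Of 13 tested cadherins 6 were lower and 7 higher in XBS (Cdh13, among the higher, turned negative by voom), and 0 rose or fell. Both main cadherins of lung, Cdh1 and Cdh5, were on the lower side. Cdh1, the epithelial cadherin (chromosome 19 from 38768467 to 38838395 in the table, whose build is not stated), had 334, 277, 343, 347 and 276 CPM in XBS 1 to 5, against 383, 329.5, 365, 342 and 341 CPM in MOD 1 to 5. XBS 1, XBS 3 and XBS 4 reached the range of MOD, whose lowest library had 329.5 CPM. Its log2 fold change was -0.16 ± 0.09 (SE), adjusted p = 0.448. Cdh5, the cadherin of endothelial junctions (chromosome 19 from 1023683 to 1074365), had 379.8, 669, 654, 666 and 562 CPM in XBS 1 to 5, against 705, 881, 734, 884 and 602 CPM in MOD 1 to 5. XBS 1 was lowest, and XBS 2, XBS 3 and XBS 4 lay above MOD 5, so the groups overlapped (log2 fold change -0.38 ± 0.16 (SE), adjusted p = 0.362). The ratio of Cdh1 to Cdh5, free of library scaling, was 0.804 in XBS 1 by FPKM. It stood between 0.380 and 0.480 in the other 4 XBS libraries and between 0.343 and 0.518 in the MOD libraries. XBS 1 also had the lowest sum of endothelial markers, at 2378, 3528, 3296, 3319 and 3266 CPM in XBS 1 to 5, against 3266, 4514, 3954, 4359.6 and 3247 CPM in MOD 1 to 5. Of 9 tested endothelial markers, 8 had a negative and 1 a positive fold change and 0 passed; their part in the Cdh5 values was not tested. In bulk tissue, fewer cells of a type and less RNA per cell cannot be told apart. P-cadherin (Cdh3) averaged 24.6 ± 4.11 CPM in XBS and 27.7 ± 1.88 CPM in MOD (SD, n = 5 each). N-cadherin (Cdh2), the cadherin of heart muscle and mesenchyme, averaged 11.2 ± 4.32 CPM in XBS and 12.6 ± 1.95 CPM in MOD (SD, n = 5 each; adjusted p = 0.793).

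Of 8 tested catenin genes 7 were lower and 1 higher in XBS, and p120-catenin was the 1 member of all 47 whose groups did not overlap. Ctnnd1 (chromosome 3 from 72002152 to 72053049), which binds the cadherin tail near the membrane and holds the cadherin at the surface, had 399.7, 409.8, 455, 435 and 424 CPM in XBS 1 to 5, against 464, 537, 521, 500.1 and 482 CPM in MOD 1 to 5. Every XBS library was below every MOD library, as was so for 1.13% of all genes tested. A further 1.61% of all genes tested had every XBS library above every MOD library, against 0 of the 47 members. The difference of 15.2% had a log2 fold change of -0.24 ± 0.07 (SE) and an adjusted p = 0.201, while DESeq2 gave an adjusted p = 0.0124; adjusted p ran from 0.0124 to 0.451 over the alternatives. Ctnna1, the actin link of the complex, had 494, 510.5, 596, 597 and 524 CPM in XBS 1 to 5, against 589, 662, 642, 643 and 615 CPM in MOD 1 to 5. XBS 3 and XBS 4 lay just above MOD 1 and below the other MOD libraries (log2 fold change -0.21 ± 0.08 (SE), adjusted p = 0.294). Ctnnb1, which serves both in the junction and in WNT signalling, had 329, 261, 417, 488 and 421 CPM in XBS 1 to 5, against 372, 431, 438, 458 and 475 CPM in MOD 1 to 5. It varied more within XBS than Ctnnd1 or Ctnna1, with XBS 2 lowest and XBS 4 highest of all 10 libraries (log2 fold change -0.18 ± 0.15 (SE), adjusted p = 0.603). Jup, the catenin shared by adherens junctions and desmosomes, averaged 379 ± 42.6 CPM in XBS and 424 ± 19.2 CPM in MOD (SD, n = 5 each; adjusted p = 0.435), and Dsp, which ties desmosomes to keratin, averaged 141 ± 13.6 CPM in XBS and 156 ± 7.39 CPM in MOD (SD, n = 5 each; adjusted p = 0.425). For both, XBS 5 and XBS 1 were the lowest libraries. Of the other genes with a catenin symbol, Ctnnbl1 averaged 29.5 ± 2.87 CPM in XBS and 34.6 ± 4.45 CPM in MOD, and Ctnnbip1 16.0 ± 1.87 CPM in XBS and 16.4 ± 2.59 CPM in MOD (SD, n = 5 each). Ctnnal1, the 1 higher, averaged 52.2 ± 6.87 CPM in XBS and 47.4 ± 3.94 CPM in MOD (SD, n = 5 each; adjusted p = 0.557). Ctnnd2, a neuronal relative of p120-catenin, ranged over 0.143-1.04 CPM in XBS libraries, against 0.358-1.53 CPM in MOD libraries.

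Of the 5 nectin and afadin genes 4 were lower in XBS (Nectin2 turned positive by voom) and 0 fell, with Afdn, Nectin3 and Nectin1 the farthest from 0. Afdn, the actin anchor of nectins (chromosome 1 from 53715693 to 53802658), had 79.3, 76.9, 95.8, 112 and 95.0 CPM in XBS 1 to 5, against 95.1, 133, 116, 142 and 116 CPM in MOD 1 to 5. XBS 3 and XBS 4 lay above MOD 1, and XBS 1 and XBS 2 were the lowest of the 10 libraries (log2 fold change -0.39 ± 0.13 (SE), adjusted p = 0.246). Nectin3 had 40.9, 45.2, 70.0, 57.1 and 50.9 CPM in XBS 1 to 5, against 53.5, 73.2, 72.0, 67.7 and 70.9 CPM in MOD 1 to 5. MOD 1 was low within its group, and XBS 3 and XBS 4 lay above it (log2 fold change -0.35 ± 0.14 (SE), adjusted p = 0.338). Nectin1 had 50.5, 53.6, 69.1, 64.4 and 44.3 CPM in XBS 1 to 5, against 78.3, 72.9, 62.8, 64.8 and 70.5 CPM in MOD 1 to 5, with XBS 3 and XBS 4 among the MOD values (log2 fold change -0.31 ± 0.12 (SE), adjusted p = 0.321). Nectin2 averaged 109.8 ± 12.9 CPM in XBS and 115 ± 21.6 CPM in MOD (SD, n = 5 each; adjusted p = 0.844), and its log2 fold change plus or minus 2 SE spanned -0.32 to 0.19. Nectin4, an epithelial nectin, averaged 15.8 ± 5.38 CPM in XBS and 15.8 ± 2.25 CPM in MOD (SD, n = 5 each).

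**Figure D3:**
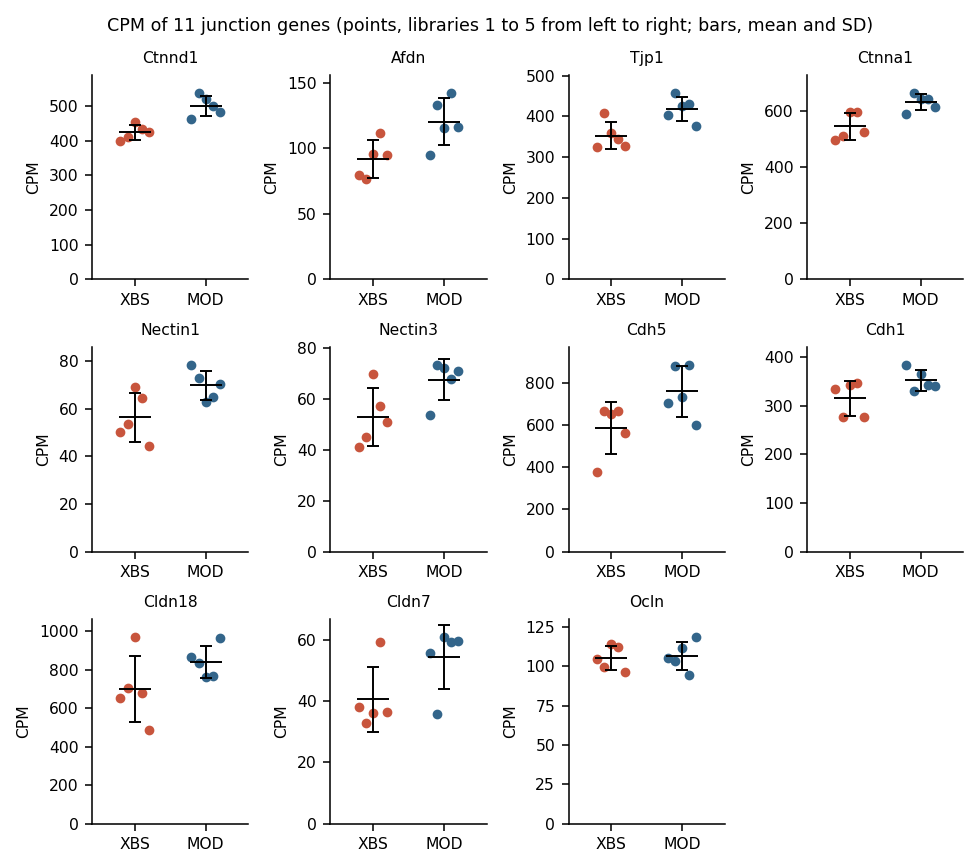
CPM of 11 members by library, XBS left of MOD, with points in the order of replicate numbers and bars for the mean and SD (n = 5). Ctnnd1 alone has no XBS point at or above a MOD point, and the points of Ocln are interleaved.

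Of the other tight junction genes 0 rose or fell. Tjp1, Tjp3, Ocln, F11r and Marveld2 had negative fold changes, of which those of Tjp3 and Ocln turned positive by voom. Tjp1, which encodes ZO-1 (chromosome 1 from 126146489 to 126227469), had 324, 409, 360.2, 345 and 328 CPM in XBS 1 to 5, against 403, 457, 425, 431 and 376 CPM in MOD 1 to 5. XBS 2 lay within the MOD range, and the other XBS libraries were below all of MOD (log2 fold change -0.24 ± 0.08 (SE), adjusted p = 0.265). Tjp3, which encodes the epithelial ZO-3, averaged 31.2 ± 11.4 CPM in XBS and 32.1 ± 8.16 CPM in MOD (SD, n = 5 each; adjusted p = 0.957); the end of this gene overlaps Apba3 on the opposite strand. Ocln, the gene of occludin, had 105, 99.8, 114, 112 and 96.2 CPM in XBS 1 to 5, against 105, 103, 111, 94.5 and 118 CPM in MOD 1 to 5. Its groups were interleaved, and the log2 fold change of -0.02 ± 0.08 (SE) spanned -0.17 to 0.14 at 2 SE. F11r averaged 340.3 ± 35.2 CPM in XBS and 364 ± 18.3 CPM in MOD (SD, n = 5 each; adjusted p = 0.615). Marveld2, which encodes tricellulin of the corners where 3 cells meet, averaged 13.7 ± 2.77 CPM in XBS and 15.1 ± 2.24 CPM in MOD (SD, n = 5 each; adjusted p = 0.736). Whether Tjp1 and Ocln differed from each other in their response was not tested.

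The start regions of the lower members were looked up in the RefSeq promoter table, which holds 250 bases before and 50 after each gene's start in build GRCr8 and matched 52 of the 72 members. Those of the members lower at an unadjusted p under 0.05 that had an entry are printed, since these genes had the smallest p-values among the lower members. Capitals mark 4 motifs searched on both strands: CAGGTG, the E-box core bound by SNAIL and ZEB repressors of cadherin genes; AGGTCA, a half-site of nuclear receptors that REV-ERB proteins also bind; CCGGAA, a core of ETS factors; and GTTGCC, a half-site of RFX factors of ciliated cells. No motif here overlapped another.
Ctnnd1, GRCr8 chr3:90141140-90141439, minus strand: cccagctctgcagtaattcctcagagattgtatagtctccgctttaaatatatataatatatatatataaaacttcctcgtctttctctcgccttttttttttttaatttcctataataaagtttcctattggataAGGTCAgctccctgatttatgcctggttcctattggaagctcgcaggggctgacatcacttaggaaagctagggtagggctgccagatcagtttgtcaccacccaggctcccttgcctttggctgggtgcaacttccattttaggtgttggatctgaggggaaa
Tjp1, GRCr8 chr1:128325311-128325610, minus strand: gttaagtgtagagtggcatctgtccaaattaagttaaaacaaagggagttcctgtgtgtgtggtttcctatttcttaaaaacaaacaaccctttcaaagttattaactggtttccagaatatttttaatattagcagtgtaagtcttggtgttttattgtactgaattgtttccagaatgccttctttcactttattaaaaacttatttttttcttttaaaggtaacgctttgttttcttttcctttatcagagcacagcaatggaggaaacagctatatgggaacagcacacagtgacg
Nectin3, GRCr8 chr11:67826694-67826993, plus strand: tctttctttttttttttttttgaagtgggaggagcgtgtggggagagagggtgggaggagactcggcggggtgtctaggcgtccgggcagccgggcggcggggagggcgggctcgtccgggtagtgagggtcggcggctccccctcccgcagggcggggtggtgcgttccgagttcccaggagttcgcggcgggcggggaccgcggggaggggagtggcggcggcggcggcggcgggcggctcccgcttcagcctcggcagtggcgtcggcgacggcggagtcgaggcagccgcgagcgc
Cldn7, GRCr8 chr10:55188420-55188719, plus strand: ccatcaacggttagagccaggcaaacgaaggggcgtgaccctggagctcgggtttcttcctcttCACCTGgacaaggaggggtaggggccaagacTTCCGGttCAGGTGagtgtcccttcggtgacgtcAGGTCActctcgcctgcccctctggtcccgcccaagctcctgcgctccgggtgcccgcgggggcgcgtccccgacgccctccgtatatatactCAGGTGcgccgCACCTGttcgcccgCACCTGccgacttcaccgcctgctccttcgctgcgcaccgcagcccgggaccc
Ctnnd1 held 1 AGGTCA, Cldn7 held 5 CAGGTG, 1 AGGTCA and 1 CCGGAA, and Tjp1 and Nectin3 held none of the 4 in these windows. The window of Tjp1 was 33.7% G or C and that of Nectin3 73.3%, against a median of 51.7% over all 33469 promoters, so their base composition differed. The windows are placed by annotated starts, and whether lung uses these starts, that of Tjp1 among them, was not tested. The values for Tjp1 therefore describe its printed window and not a promoter shown to be active. CAGGTG stood in 15 of the 52 member promoters (28.8%) and in 18.8% of all promoters. The corresponding shares were 19.2% and 16.2% for AGGTCA, 5.77% and 15.0% for CCGGAA, and 7.69% and 12.2% for GTTGCC. A match describes letters and not a bound site.

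Of 14 tested claudins 10 were lower and 4 higher in XBS, with a median log2 fold change of -0.02, and 0 rose or fell. Claudin-18, whose lung form seals the alveolar epithelium (chromosome 8 from 107934860 to 107952530), had 653, 706, 968, 681 and 488 CPM in XBS 1 to 5, against 865, 837, 763, 768 and 962 CPM in MOD 1 to 5. XBS 3 was the highest of all 10 libraries, while the other 4 XBS libraries lay below every MOD library (log2 fold change -0.26 ± 0.15 (SE), adjusted p = 0.467). Alveolar type 1 markers, of flat cells of the alveolus, summed to 6483, 7507, 8546, 6681 and 5532 CPM in XBS 1 to 5. The sums in MOD 1 to 5 were 8488, 9570.3, 8279.6, 8818 and 8307 CPM. In this list XBS 3 was again the highest XBS library and XBS 5 the lowest, all 10 of its genes had a negative fold change and 0 passed. Alveolar type 2 markers summed to 31562, 26148, 34811, 28979 and 17311 CPM in XBS 1 to 5. Their sums in MOD 1 to 5 were 27700, 27582, 26917, 25578 and 33112 CPM. In these sums XBS 3 was the highest and XBS 5 the lowest of all 10 libraries. By gene, XBS 3 was highest in Sftpa1, Napsa, Lamp3 and Abca3 only. MOD 5 was highest in Sftpc, Sftpd and Lpcat1, and XBS 1 in Slc34a2, Sftpb and Etv5. Sftpd and Lamp3 were lowest in XBS 2 and the other type 2 genes in XBS 5. Of the 10 type 2 genes 8 had a negative and 2 a positive fold change, and 0 passed. The part of either cell type in the Cldn18 values was not tested. Cldn7 had 38.1, 32.9, 36.2, 59.3 and 36.4 CPM in XBS 1 to 5, against 55.6, 35.9, 60.7, 59.3 and 59.7 CPM in MOD 1 to 5. XBS 4 lay among the higher MOD values and MOD 2 among the lower XBS values, so the groups overlapped (log2 fold change -0.42 ± 0.18 (SE), adjusted p = 0.366). Cldn3, which tightens epithelial barriers, averaged 92.9 ± 20.1 CPM in XBS and 89.6 ± 10.9 CPM in MOD (SD, n = 5 each; adjusted p = 0.900). Cldn12 averaged 29.0 ± 2.74 CPM in XBS and 29.0 ± 3.11 CPM in MOD, and Cldn8 13.1 ± 1.49 CPM in XBS and 13.3 ± 2.90 CPM in MOD (SD, n = 5 each).

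The claudins with positive fold changes other than Cldn3 were Cldn11, Cldn10 and Cldn19. Cldn11, which forms the tight junctions of myelin and of Sertoli cells, had 22.1, 21.1, 11.1, 9.74 and 6.31 CPM in XBS 1 to 5, against 12.5, 9.44, 8.56, 11.2 and 6.87 CPM in MOD 1 to 5. XBS 1 and XBS 2 stood above the other libraries, XBS 3 and XBS 4 lay within the MOD range and XBS 5 below it (log2 fold change 0.53 ± 0.33 (SE), adjusted p = 0.486). Markers of mesothelium, the lining of the lung surface, summed to 143, 238, 111, 116 and 92.9 CPM in XBS 1 to 5, against 173, 73.5, 104, 80.9 and 87.8 CPM in MOD 1 to 5. XBS 2 had the highest sum, followed by MOD 1, whereas Cldn11 was highest in XBS 1. All 6 tested genes of that list had a positive fold change and 0 passed. Whether mesothelium bears on Cldn11 was not tested. Cldn10 averaged 9.61 ± 1.73 CPM in XBS and 8.48 ± 0.872 CPM in MOD (SD, n = 5 each; adjusted p = 0.593). Of the remaining tested claudins, Cldn15 ranged over 5.95-12.6 CPM in XBS libraries, against 7.22-13.0 CPM in MOD libraries, Cldn1 over 4.18-10.8 CPM in XBS libraries, against 6.74-14.7 CPM in MOD libraries, and Cldn6, Cldn19, Cldn22 and Cldn23 stayed between 0.411 and 6.17 CPM in all libraries.

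Cldn5, the main claudin of blood vessel endothelium, was listed at 0 counts in all 10 libraries, although Cdh5 of the same cells had 168 FPKM. The table places Cldn5 on chromosome 11 from 86356294 to 86357718, minus strand, wholly inside the interval of Cdc45 on the plus strand, which runs from 86329012 to 86358453 and had 68 to 171 counts per library. Of 583 genes that lie inside another gene on the opposite strand, 28.8% were at 0 in every library, against 17.2% of the other 21667 genes. How the counting treated reads where genes overlap is not stated in the labels or the table and was not tested, so the 0 of Cldn5 is not read as absence of its RNA. Cldn20 is the other member placed inside an opposite gene, Tfb1m, and had 17 counts in all.

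Some low members varied far more between libraries than between groups. Cdh26, a cadherin of airway epithelium, had 5.67, 1.41, 1.55, 18.2 and 23.2 CPM in XBS 1 to 5, against 9.18, 6.13, 9.66, 13.9 and 14.1 CPM in MOD 1 to 5. It was lowest in XBS 2 and XBS 3, highest in XBS 5 and XBS 4, and spanned 16.5-fold over the libraries. Cldn4, a claudin of airway and injured alveolar epithelium, had 12.6, 3.33, 3.70, 15.1 and 16.7 CPM in XBS 1 to 5, against 11.0, 7.28, 10.7, 8.97 and 14.3 CPM in MOD 1 to 5. XBS 2 and XBS 3 were the lowest libraries there as well, and without them the log2 fold change was 0.50 ± 0.21 (SE), adjusted p = 0.423, in place of -0.03 ± 0.43 (SE). Tjp3 had 29.6, 19.5, 22.2, 47.4 and 37.3 CPM in XBS 1 to 5, against 36.8, 20.8, 33.7, 27.7 and 41.8 CPM in MOD 1 to 5, with XBS 2 lowest and XBS 4 highest. Nectin4 had 22.8, 8.96, 12.1, 17.8 and 17.4 CPM in XBS 1 to 5, against 16.4, 13.8, 17.0, 13.2 and 18.6 CPM in MOD 1 to 5, again lowest in XBS 2 and XBS 3. These are the 2 libraries with the smallest sums of ciliated and club cell markers given above, and the part of airway content in these 4 members was not tested. Without XBS 2 and XBS 3 the number of members called by edgeR was 0 of 49, with 14 at an unadjusted p under 0.05 (11.1% of all genes in that fit). Without MOD 4 and XBS 5 the number at an unadjusted p under 0.05 was 4 of 47 (9.37% of all genes).

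Other cadherins were highest in XBS 5. Cdh6 had 1.15, 0.518, 0.943, 3.10 and 12.7 CPM in XBS 1 to 5, against 0.287, 3.68, 2.63, 1.86 and 2.69 CPM in MOD 1 to 5, so that XBS 5 stood far above the next library, MOD 2. Cdh13, T-cadherin, a cadherin without a cytoplasmic tail found on vessels and muscle, had 23.8, 16.1, 12.1, 30.2 and 64.1 CPM in XBS 1 to 5, against 8.89, 29.9, 34.5, 23.6 and 28.6 CPM in MOD 1 to 5. MOD 1 was lowest and XBS 5 highest, and without XBS 5 the log2 fold change was -0.29 ± 0.37 (SE), adjusted p = 0.711, in place of 0.22 ± 0.46 (SE), adjusted p = 0.858. Cdh19, a cadherin of Schwann cells, did not pass the filter and had 9, 1, 0, 24 and 30 counts in XBS 1 to 5, against 1, 2, 9, 5 and 11 counts in MOD 1 to 5. XBS 5 had the largest sum of fibroblast markers (3773-8996 CPM in XBS libraries, against 2973-5502 CPM in MOD libraries). In that list Col1a1, Col3a1, Dcn, Lum and Fbln1 were highest in XBS 5. Tcf21 was lowest there, at 135 CPM, and Pdgfra lay below MOD 2 and MOD 4. XBS 5 also had the largest sum of smooth muscle markers (1608-4076 CPM in XBS libraries, against 1284-2479.9 CPM in MOD libraries), beside the cardiac sum given above. The part of these cell types in these cadherins was not tested. Cdh2 was also highest in XBS 5, at 17.7 CPM, against 10.2 to 15.4 CPM in MOD, and lowest in XBS 1 at 6.25 CPM. MOD 4 had the next largest cardiac sum, with more Myh6 (94.5 CPM) and Myl7 (52.4 CPM) than XBS 5 (64.4 and 50.8 CPM). The other cardiac genes were higher in XBS 5, Actc1 among them (244 CPM, against 123 CPM in MOD 4). Of the cadherins, MOD 4 had 15.4 CPM of Cdh2, 1.86 CPM of Cdh6 and 23.6 CPM of Cdh13. The part of heart muscle in these values was not tested.

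**Figure D4:**
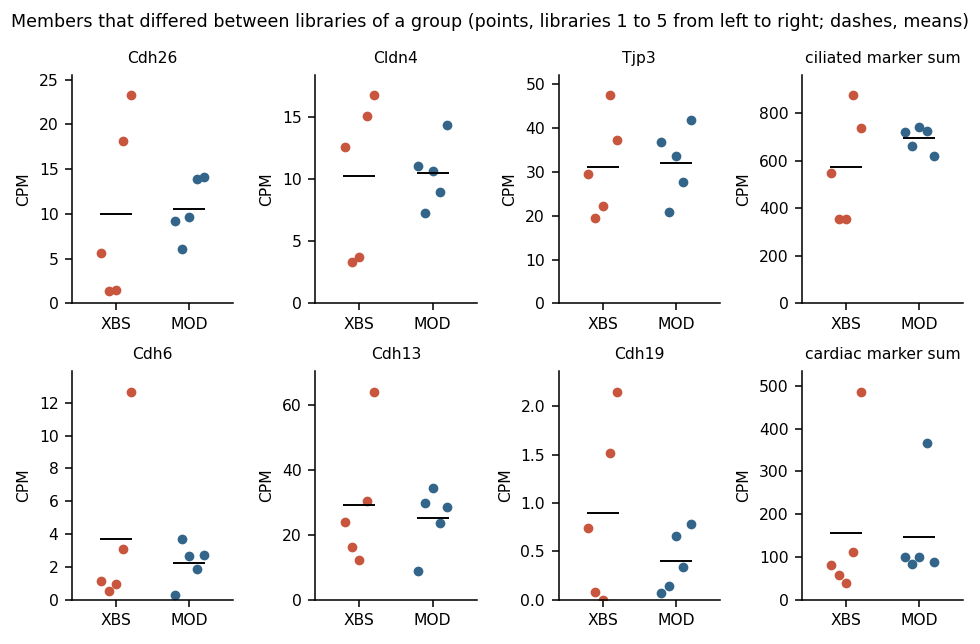
CPM by library for 6 members of uneven level and the summed CPM of ciliated and cardiac markers, XBS left of MOD, points in the order of replicate numbers and dashes for the mean of each group. Cdh26, Cldn4, Tjp3 and the ciliated sum are low in XBS 2 and XBS 3, and Cdh6, Cdh13 and Cdh19 are highest in XBS 5.

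The 1 member higher in XBS at an unadjusted p under 0.05 was Cdh23, an atypical cadherin known from the tip links of hair cells in the ear. Cdh23 had 3.78, 3.04, 3.5, 2.66 and 2.8 CPM in XBS 1 to 5, against 1.94, 1.51, 2.34, 1.40 and 3.05 CPM in MOD 1 to 5. These are low values, and MOD 5 lay among the XBS libraries (log2 fold change 0.62 ± 0.25 (SE), adjusted p = 0.335). Its interval also holds Vsir, a leukocyte gene on the opposite strand, with 130.4, 157, 176, 131 and 123 CPM in XBS 1 to 5, against 108, 118, 124, 123 and 145 CPM in MOD 1 to 5, and without strand their reads cannot be told apart where exons overlap. Cdh11, the cadherin of mesenchymal cells, averaged 78.4 ± 20.1 CPM in XBS and 67.9 ± 13.1 CPM in MOD and Cdh4 7.98 ± 2.50 CPM in XBS and 6.70 ± 0.479 CPM in MOD (SD, n = 5 each; adjusted p = 0.633 and 0.612). Cdh17 ranged over 4.15-7.27 CPM in XBS libraries, against 2.23-8.57 CPM in MOD libraries, Cdh22 over 3.70-9.83 CPM in XBS libraries, against 4.16-7.39 CPM in MOD libraries and Cdh24 over 2.89-12.1 CPM in XBS libraries, against 3.97-10.3 CPM in MOD libraries; the interval of Cdh22 also holds Slc35c2 on the same strand.

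**Figure D5:**
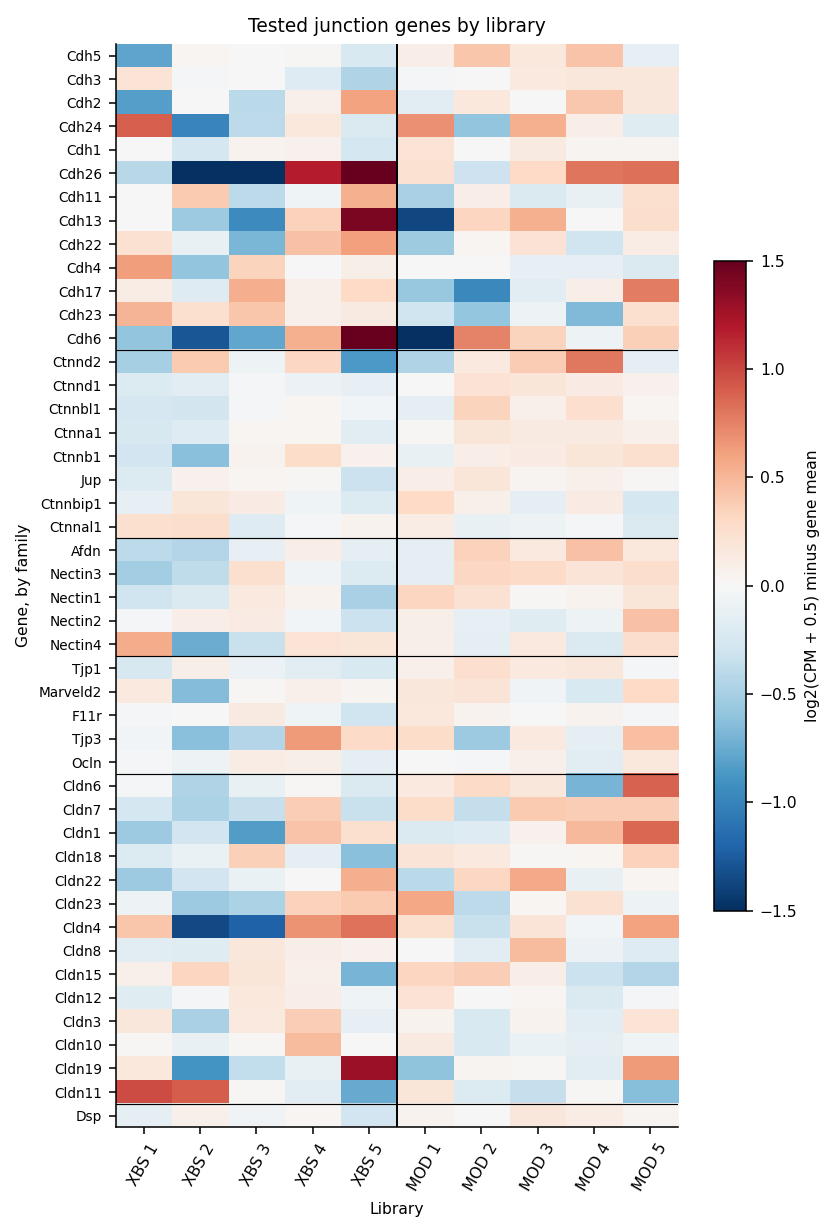
Log2(CPM + 0.5) of tested members minus each gene's mean over the 10 libraries, XBS libraries left of MOD and families separated by lines; colours saturate at 1.5. Ctnnd1, Ctnna1, Tjp1 and Ocln show pale, even rows, whereas Cdh26, Cdh13, Cdh6 and Cldn4 differ between libraries of the same group.

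The 25 members that did not pass the filter had at most 30 counts in any library. Of these, 11 were at 0 in all libraries: Cdh8, Cdh10, Cldn5, Cldn14, Cldn16, Cldn24, Cldn25, Cldn34a, Cldn34b, Cldn34c4 and Cldn34d. The cadherins Cdh7, Cdh9, Cdh12, Cdh15, Cdh16, Cdh18, Cdh19 and Cdh20, the claudins Cldn2, Cldn9, Cldn17, Cldn20 and Cldn34e, and the neuronal alpha-catenin Ctnna2 had between 1 and 92 counts over all libraries. Cldn2, which forms a cation pore in leaky epithelia, had 71 counts in all. The 25 members have no p-value in the main comparison, so whether they differed was not tested there. In the fit without the filter 61 members were tested and 0 passed the threshold.

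Genes that work with these junctions were read from 6 lists. Of 102 tested genes in them, 0 rose and 1 fell. The gene that fell was Klf5, an epithelial transcription factor, with 65.0, 62.4, 70.0, 73.9 and 63.8 CPM in XBS 1 to 5, against 111, 97.2, 100.3, 99.9 and 104 CPM in MOD 1 to 5. Its groups did not overlap, and its log2 fold change was -0.60 ± 0.08 (SE, adjusted p = 0.0715) without XBS 2 and XBS 3 and -0.60 ± 0.08 (SE, adjusted p = 0.0836) without MOD 4 and XBS 5, where the call was lost (all libraries, log2 fold change -0.61 ± 0.07 (SE), adjusted p = 0.00714). The other 13 tested transcription factors of the epithelial junction list did not pass. Among them Snai1, a repressor of Cdh1, averaged 31.9 ± 8.37 CPM in XBS and 24.6 ± 3.55 CPM in MOD (SD, n = 5 each; adjusted p = 0.379). The other repressors of this kind in the list went in both directions. The log2 fold change was 0.22 ± 0.17 (SE) for Snai2 and -0.15 ± 0.11 (SE) for Zeb1. It was -0.05 ± 0.16 (SE) for Zeb2 and -0.13 ± 0.41 (SE) for Twist1. The 25 tested partners of the tight junction comprised 20 lower and 5 higher genes, with 0 rising, 0 falling and a median log2 fold change of -0.17. At an unadjusted p under 0.05 there were 9 of these 25, all lower, against 13.2% of all genes tested in either direction and 5.78% lower. By the same limit in either direction there were 4 of 20 adherens junction partners, 5 of 19 other cadherin superfamily genes and 2 of 14 transcription factors. Each of these 3 counts held 1 gene that was higher in XBS. There were also 1 of 16 beta-catenin partners, which was lower, and 0 of 9 desmosome partners. Over all genes tested 13.2% met this limit in either direction. Pard3, a polarity scaffold, had 62.6, 65.8, 63.6, 64.1 and 63.3 CPM in XBS 1 to 5, against 73.2, 75, 72.2, 68.7 and 70.5 CPM in MOD 1 to 5. Every XBS library was below every MOD library (log2 fold change -0.17 ± 0.05 (SE), adjusted p = 0.215). Mpp5, which encodes the polarity protein PALS1, averaged 94.1 ± 14.4 CPM in XBS and 119.7 ± 11.4 CPM in MOD (SD, n = 5 each; adjusted p = 0.224). The genes Magi3 and Pard6g of this list also had groups without overlap, both lower in XBS, as 1.13% of all genes tested did. Magi3 averaged 183 ± 14.9 CPM in XBS and 214 ± 20.2 CPM in MOD and Pard6g 16.5 ± 3.53 CPM in XBS and 22.5 ± 2.62 CPM in MOD (SD, n = 5 each; adjusted p = 0.294 and 0.268).

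Partners of adherens junctions went in both directions. Of 20 tested, 11 were lower and 9 higher, 0 rose, 0 fell and the median log2 fold change was 0.00. Lima1, an actin-binding partner of alpha-catenin, averaged 112 ± 10.7 CPM in XBS and 94.3 ± 3.88 CPM in MOD, and Ajuba, a LIM protein of the junction, 111 ± 10.3 CPM in XBS and 128 ± 9.60 CPM in MOD (SD, n = 5 each; adjusted p = 0.210 and 0.306). Of 9 tested desmosome partners 6 were lower, 3 higher and 0 passed (median -0.07); periplakin (Ppl) averaged 125 ± 18.4 CPM in XBS and 143 ± 12.7 CPM in MOD and plakophilin 3 (Pkp3) 15.4 ± 1.90 CPM in XBS and 17.6 ± 2.0 CPM in MOD (SD, n = 5 each; adjusted p = 0.452 and 0.489). In the wider cadherin superfamily 13 of 19 tested genes were lower, 6 higher and 0 passed (median -0.16). Cdhr1 averaged 7.61 ± 2.47 CPM in XBS and 4.53 ± 0.937 CPM in MOD, and Pcdh17, a protocadherin, 43.8 ± 12.3 CPM in XBS and 62.8 ± 12.4 CPM in MOD (SD, n = 5 each; adjusted p = 0.263 and 0.323). Partners and targets of beta-catenin had 7 lower and 9 higher of 16 tested, with 0 passing and a median of 0.03. Nkd1, a WNT feedback inhibitor, averaged 147 ± 16.5 CPM in XBS and 172 ± 16.6 CPM in MOD and Tcf7l1, a repressor that binds beta-catenin, 39.0 ± 1.58 CPM in XBS and 35.9 ± 0.857 CPM in MOD (SD, n = 5 each; adjusted p = 0.353 and 0.428). Every XBS library was above every MOD library for Tcf7l1, with 37.4-40.8 CPM in XBS and 34.8-36.7 CPM in MOD, as was so for 1.61% of all genes tested.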

How the data were processed

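Polyadenylated RNA of rat lung was isolated with Trizol and sequenced, per the labels' protocols. The single table that the authors deposited holds whole-number read counts per gene and library, not normalized, and FPKM values that equal these counts divided by the length column and the library total, per the file headers and the values. Neither labels nor table state the aligner, counter, strand setting, annotation or rat build, and the submitters' processing notes name GRCh38, hg38 and mm10, which are not rat builds. Gene positions are those of the table. All its library columns were used. A member that was counted but is not named is not reported here.

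Low counts were removed by filterByExpr (at least 10 counts in enough libraries and 15 in all). Library totals were scaled by TMM. XBS was set over MOD in edgeR 4.0.16 (robust quasi-likelihood test, R 4.3.3), and p-values were adjusted by Benjamini-Hochberg over all 14320 genes tested, with a threshold of 0.05. CPM use the TMM totals. An SE is the log2 fold change divided by the root of F. The deposited FPKM served to compare levels between genes. Within groups no 2 libraries agreed within sampling noise (lowest chi-square per degree of freedom 9.46). The model was tested on simulated data.

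The members, gene lists, tests and the libraries left out in pairs were chosen with earlier results of these data known. Test values are given for 24 core members and for the 6 tested members of smallest p in each direction. In each partner list they are given for the genes past the threshold or otherwise the 2 of smallest p. Magi3, Pard6g, Snai1, Snai2, Zeb1, Zeb2 and Twist1 were added after their values were seen. Alternatives were DESeq2 1.42.0, voom with sample weights in limma 3.58.1, RLE and upper quartile scaling, no filter, 1 CPM in 5 libraries, the replicate number as a block, and leaving out libraries.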

Additional observations from a re-analysis of the deposited data

Results flagged for a closer look

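A single library far from the other 4 of its group marked 5 of the 58 groups of 5 formed by the 29 named members, where chance marks about 1 group in 20. Marveld2 had 8.81 CPM in XBS 2, against 14.3 to 15.7 CPM in the other XBS libraries. Cldn7 had 59.3 CPM in XBS 4, against 32.9 to 38.1 CPM in the rest of XBS, and 35.9 CPM in MOD 2, against 55.6 to 60.7 CPM in the rest of MOD. Cldn10 had 12.7 CPM in XBS 4, against 8.29 to 9.09 CPM in the other XBS libraries. Nectin3 had 53.5 CPM in MOD 1, against 67.7 to 73.2 CPM in the other MOD libraries.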

How the results depend on the processing

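DESeq2 called 1 junction gene (Ctnnd1, log2 fold change -0.24, adjusted p = 0.0124), and 0 passed under every other alternative run. Over all genes the count of 11 became 335 by DESeq2, 67 by voom, 3 without XBS 2 and XBS 3, and 0 without MOD 4 and XBS 5 (1340 at an unadjusted p under 0.05 by edgeR). With 1 library left out it ran from 4 to 15, and was at most 7 without XBS 1, XBS 2, XBS 3, MOD 2, MOD 3 or MOD 4. In the partner lists the count of 1, Klf5, became 0 without XBS 2 and XBS 3, without MOD 4 and XBS 5, and with the replicate block (log2 fold change -0.61, adjusted p = 0.101). In the fit with a replicate block, 1 of all genes and 0 members passed. Same-numbered libraries had correlations of -0.145 to 0.357 in their deviations, and 1 of 5 XBS libraries was closest to its own number, so the numbers were not taken as pairs.

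Of 551 values for the 29 named members, 529 kept direction and side of the threshold, 1 gained the threshold (Ctnnd1) and 21, of 7 members, changed sign. By voom the log2 fold change was -0.0560 for Cdh13, 0.0752 for Tjp3, 0.00322 for Ocln and 0.00334 for Nectin2. Without XBS 2 and XBS 3 it was 0.25 for Tjp3, 0.00201 for Marveld2 and 0.50 for Cldn4, and without MOD 4 and XBS 5 -0.31 for Cdh13. With 1 library left out it ran from -0.29 to 0.42 for Cdh13, -0.24 to 0.0884 for Tjp3, -0.0571 to 0.0232 for Ocln, -0.12 to 0.0511 for Nectin2, -0.0458 to 0.16 for Cldn3 and -0.27 to 0.20 for Cldn4. The cause was not tested. The median of tested members ran from -0.18 to -0.06. Genes near 3 counts could not be compared.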
